A study of Mus musculus with 3 samples.

Results

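The Krüppel-like factors Klf2, Klf3, Klf4, Klf6 and Klf13 and the trafficking genes S1pr1 and Itgb7 were read out in B cells sorted from mouse spleen. These 7 genes were chosen by name, and each matched 1 row among the 27088 genes of the deposited table. The 2 libraries compared come from female BALB/c mice that were 6 weeks old at the start and 13 weeks old in the sample description. Mice of both groups carried the same allergic rhinitis model. They received 10 μg ovalbumin (OVA) with 2 mg aluminum hydroxide intraperitoneally on days 0, 7 and 14, and 100 μg OVA intranasally from day 21 to day 27 and again from day 29 to day 35. The PBS group was injected subcutaneously with PBS on days 0, 14 and 28, and the SJMHE1 group was injected on the same days with 10 μg of SJMHE1, a peptide of the worm Schistosoma japonicum, in incomplete Freund's adjuvant. The PBS injections held no adjuvant, so peptide and adjuvant cannot be told apart. Cells were collected on day 36, and the material of 3 mice was combined into 1 library per group. There was thus no replicate, no test across replicates was possible, and every difference given here is one between 2 pooled libraries.

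Krüppel-like factors (KLF) are zinc finger transcription factors that bind GC-rich elements and the CACCC box. KLF2 keeps resting lymphocytes quiescent and is known for its part in their circulation, where S1pr1, the receptor through which lymphocytes follow sphingosine 1-phosphate out of lymphoid organs, is its best known target. In B cells, KLF2 is further known to maintain the β7 integrin subunit (Itgb7), which pairs with α4 to bind the vessel addressin of the gut, and to restrain the marginal zone fate. Several KLF genes, Klf2, Klf4 and Klf6 among them, are also early response genes, whose RNA changes quickly when cells are stimulated or handled.

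The CACCC box is shown here in the sequence upstream of Itgb7, the target integrin, and of Klf3, the factor with the most matches. RefSeq gives 250 bases before each transcription start on GRCm38.p6. For Klf2, Klf3, Klf6 and Itgb7 this start lies inside the gene as the deposited table places it, so 29, 133, 7 and 9 bases of the windows were inside the gene and were left out. The stretches shown are written 5′ to 3′ on the strand of the gene, with every CACCC or its reverse complement GGGTG in capitals. They are 241 bases at chr15:102231945-102232185 on the minus strand and 117 bases at chr5:64803271-64803387 on the plus strand.
Itgb7: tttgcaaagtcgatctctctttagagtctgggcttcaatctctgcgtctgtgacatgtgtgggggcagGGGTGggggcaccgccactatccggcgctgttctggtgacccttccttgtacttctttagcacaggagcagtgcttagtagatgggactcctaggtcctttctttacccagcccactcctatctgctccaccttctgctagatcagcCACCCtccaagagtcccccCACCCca
Klf3: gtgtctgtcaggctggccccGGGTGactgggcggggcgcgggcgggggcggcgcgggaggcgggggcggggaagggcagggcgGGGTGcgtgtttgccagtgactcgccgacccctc
The Itgb7 stretch held 3 matches, and the Klf3 stretch held 2. In the windows of all 32851 RefSeq starts, cut to the same positions in the window but not at any gene's start, 6.41% held at least as many matches as Itgb7 and 6.13% at least as many as Klf3. The 250 bases before Klf13 held 1 match, and 52.0% of all windows of that length held at least 1. No RefSeq window was found for S1pr1. The stretches before Klf2, Klf4 and Klf6 held 0. With the bases inside the gene, the 250-base windows held 1 match for Klf2, 5 for Klf3 and 4 for Itgb7. These are letter matches and were not read as binding.

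Klf2 had the highest level per length of the 7 genes and was nearly equal in the libraries. Klf2 (ENSMUSG00000055148, chromosome 8, 72319033 to 72321656, plus strand, 3 exons) had an FPKM, a level scaled by gene length and library size, of 491 with 49755 counts in PBS and of 486 with 52177 counts in SJMHE1. Its level was at or above that of 99.4% of the genes tested in each library. The log2 FPKM ratio of SJMHE1 to PBS was -0.01, with a 95% counting interval from -0.03 to 0.00. The sign follows the scaling of the libraries, since the ratio was 0.07 after setting the FPKM sums equal and 0.01 with TMM-scaled counts. The interval was taken from both counts by the exact Clopper-Pearson method and, like all intervals here, covers counting error alone.

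The other 4 factors were lower in the SJMHE1 library, and Klf4 stood furthest from PBS. Klf4 (ENSMUSG00000003032, chromosome 4, 55527143 to 55532466, minus strand, 5 exons), which restrains B cell proliferation and also acts in monocytes, had 57.5 FPKM in PBS and 39.2 in SJMHE1, from 9617 and 6947 counts. This is 0.683 times the PBS level, or -0.55 on the log2 scale, with a counting interval of -0.60 to -0.51. Of all ratios, 8.56% were lower than that of Klf4. It was thus the member with the greatest distance between the libraries, and the distance was still under the 2-fold threshold.

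Klf6 (ENSMUSG00000000078, chromosome 13, 5861482 to 5870394, plus strand, 4 exons), a widely expressed early response factor, had 228 FPKM in PBS and 198 in SJMHE1, from 54858 and 50459 counts. Its log2 ratio was -0.20, and its interval ran from -0.22 to -0.19. Klf13 (ENSMUSG00000052040, chromosome 7, 63886351 to 63938915, minus strand, 2 exons), a factor known for driving the chemokine gene Ccl5 in T cells, had 21.6 and 18.1 FPKM from 8944 and 7941 counts, and a log2 ratio of -0.25 (interval -0.30 to -0.21). Klf3 (ENSMUSG00000029178, chromosome 5, 64803388 to 64832901, plus strand, 6 exons), a repressor that recruits CtBP, had the lowest FPKM, 10.6 and 9.48 from 6547 and 6198 counts. Its log2 ratio was -0.16, with an interval from -0.21 to -0.11. The counting intervals of these 3 factors lay below 0, yet 25.4% of the genes tested had a lower ratio than Klf6, 20.9% a lower one than Klf13 and 29.6% a lower one than Klf3.

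The 2 trafficking genes differed in direction. S1pr1 (ENSMUSG00000045092, chromosome 3, 115710433 to 115715072, minus strand, 2 exons) had 76.5 FPKM in PBS and 89.2 in SJMHE1, from 12790 and 15790 counts. This is 1.17 times the PBS level, or 0.22 on the log2 scale (interval 0.19 to 0.26), and 80.0% of the genes tested had a lower ratio. Itgb7 (ENSMUSG00000001281, chromosome 15, 102215995 to 102231944, minus strand, 15 exons) had 84.1 and 71.2 FPKM from 12793 and 11459 counts, 0.846 times the PBS level. Its log2 ratio was -0.24, with an interval from -0.28 to -0.20, and 21.9% of the genes tested had a lower ratio. S1pr1 was the one member that was higher in the SJMHE1 library with an interval clear of 0.

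**Figure D1:**
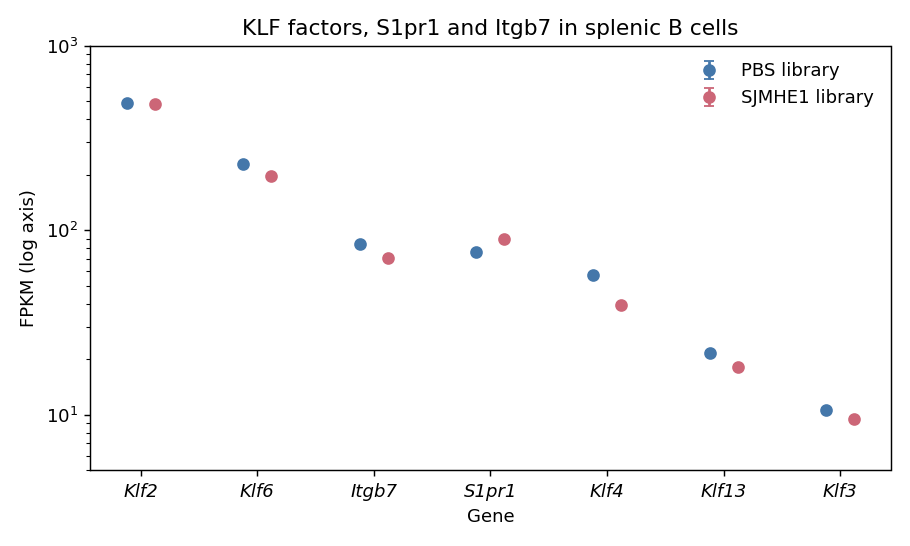
FPKM (log axis) of the 7 genes in PBS (blue) and SJMHE1 (red), 1 pooled library each. The exact Poisson counting intervals at the 95% level are narrower than the points. Klf2 is highest in both libraries at 491 and 486, and Itgb7 and S1pr1 change places.

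The order of the levels per length was Klf2, Klf6, Itgb7, S1pr1, Klf4, Klf13 and Klf3 in the PBS library. In the SJMHE1 library, S1pr1 stood above Itgb7 and the order was otherwise the same. No neighbours in either order had overlapping counting intervals. The intervals of S1pr1 ran from 75.2 to 77.8 FPKM in PBS and from 87.8 to 90.6 in SJMHE1, and those of Itgb7 from 82.7 to 85.6 and from 69.9 to 72.5. The FPKM of S1pr1 was 0.909 times that of Itgb7 in PBS and 1.25 times in SJMHE1, a difference of 0.46 between their log2 ratios. Such a ratio of 2 genes within a library does not depend on how the libraries are scaled, but it does depend on the gene lengths used. In the same way, the FPKM of Klf2 was 8.54 times that of Klf4 in PBS and 12.4 times in SJMHE1, while Klf6 was 2.71 times Itgb7 in PBS and 2.78 times in SJMHE1. The log2 ratios of Klf13 and Itgb7 differed by -0.01 and had overlapping intervals.

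Of the 7 genes, 0 were past a log2 ratio of 1 in either direction. The threshold was passed by 6% of the 12433 genes tested, which were above 0 in both libraries and reached an FPKM of 1 in one of them, with 2.43% higher and 3.57% lower. With 1 library per group this is a count by size and not by a test. All 7 genes passed that minimum, and in each library. Their median log2 ratio was -0.20, beside -0.01 over all genes tested. In the SJMHE1 library, 1 of the 7 genes was higher and 6 were lower (2 and 5 where scaling turned Klf2), beside 5929 higher and 6453 lower among all genes tested. The middle 90% of these ratios lay between -0.82 and 0.64, and the 7 genes all lay inside that range. The 7 genes are protein-coding, but of the 302 higher and 444 lower genes past the threshold, only 89 and 171 were. The range was not taken for protein-coding genes or for genes of similar level alone. The size of the difference was exceeded by 14.9% of the genes tested for Klf4, by 43.6% for S1pr1, by 40.4% for Itgb7 and by 95.5% for Klf2.

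**Figure D2:**
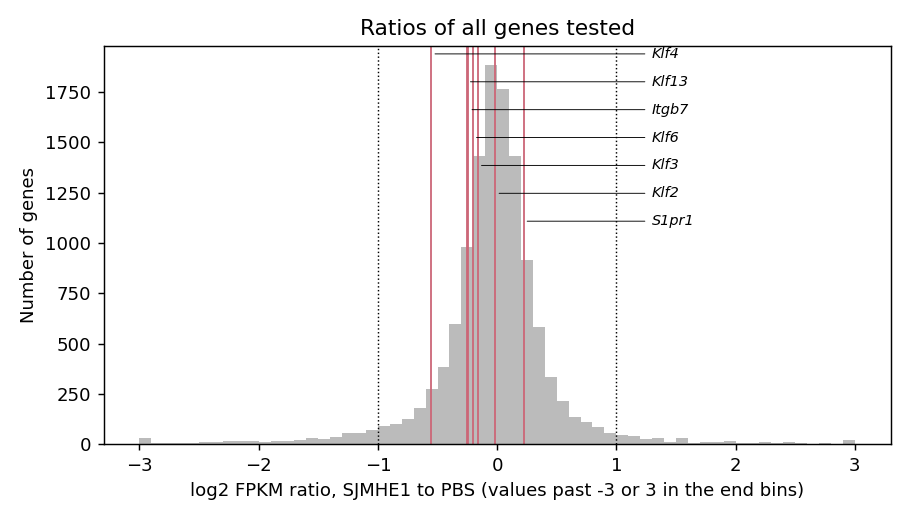
Number of genes (vertical axis) by log2 FPKM ratio of SJMHE1 to PBS (horizontal axis) for the 12433 genes tested, with the 7 genes as red lines and a ratio of 1 in either direction as dotted lines. The 7 genes lie between -0.55 for Klf4 and 0.22 for S1pr1, inside both dotted lines.

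The rest of the KLF family was far less abundant than Klf2 and Klf6, and Klf10 was the one gene of it past the threshold. Of 12 further KLF genes listed, 10 were in the table and 9 passed the lower minimum used for lists, an FPKM of 0.1 in one library. Their FPKM did not exceed 11.4 in PBS and 8.87 in SJMHE1, both from Klf16. Klf10, which is induced by TGF-β, had an FPKM of 5.80 in PBS and 2.50 in SJMHE1 from 1332 and 608 counts, and a log2 ratio of -1.21 (interval -1.35 to -1.07). Klf11, its closest relative, had 6.54 and 3.45 FPKM and a log2 ratio of -0.92. Klf1, the factor of red cell precursors, had 2.15 and 3.60 FPKM from 181 and 322 counts, a log2 ratio of 0.74. All 6 genes of the erythroid marker list, among them Hbb-bt with a log2 ratio of 0.66 and Alas2 with 0.62, were likewise higher in the SJMHE1 library, and their part in the Klf1 value was not tested. The 9 genes had a median log2 ratio of -0.21, with 3 higher and 6 lower (4 and 5 with equal FPKM sums). Over the 18426 genes with this lower minimum the median was -0.03. Of those, 6.21% were past the threshold on the higher side and 9.18% on the lower side. Of the 9 KLF genes, 8 reached an FPKM of 1, where these shares were 2.43% and 3.57% of 12433 genes. Klf15 was listed at an FPKM of 0.05 in PBS with 8 counts and at 0 in SJMHE1 with 0 counts, where a count of 0 was taken to allow up to 3 counts.

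The related SP factors, which bind GC boxes with similar zinc fingers, leaned the other way. Of 9 SP genes listed, 5 were in the table and 4 were tested, with a median log2 ratio of 0.17. Sp1 had 21.6 FPKM in PBS and 25.1 in SJMHE1, a log2 ratio of 0.22, and Sp3 had 29.4 and 34.2 FPKM, also a ratio of 0.22. Sp4 had a ratio of 0.11, and Sp2 had -0.06, which turned positive with equal FPKM sums. None of the 4 was past the threshold, beside 15.4% of the 18426 genes with the list minimum. All 4 reached an FPKM of 1, where the share was 6% of 12433 genes.

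Among regulators and partners of KLF factors, 0 of 12 genes were past the threshold, beside 15.4% of the 18426 genes with the list minimum. Of the 12 genes, 11 reached an FPKM of 1 in one library, where the share was 6% of 12433 genes. The median log2 ratio of the 12 genes was -0.13, beside -0.03 over the 18426 genes. In the SJMHE1 library, 2 were higher, 9 lower and Kat2b equal (4 higher and 8 lower with equal FPKM sums). Foxo1, which drives Klf2 in resting lymphocytes, had 21.0 FPKM in PBS and 19.0 in SJMHE1, a ratio of -0.14. The kinases Map2k5 and Mapk7, which act upstream of Klf2 through MEF2 factors, had ratios of -0.08 and -0.12. Of the MEF2 genes, Mef2d had -0.33, Mef2a had -0.30 and Mef2c had 0.05. Ctbp1, the corepressor of KLF3, had 40.5 and 36.7 FPKM, a ratio of -0.14. Wwp1, which encodes a ubiquitin ligase for KLF2, had the highest ratio of the list at 0.30, and Smurf1, another ubiquitin ligase, had the lowest at -0.43.

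**Figure D3:**
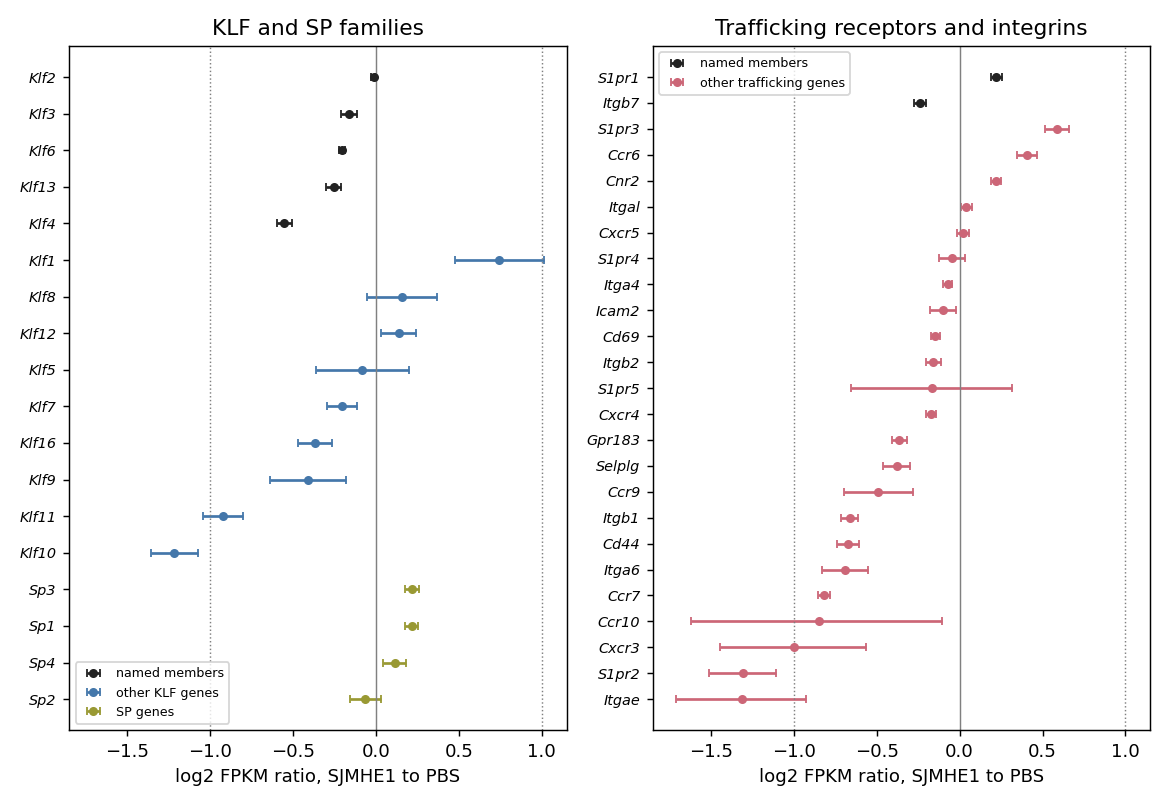
log2 FPKM ratio of SJMHE1 to PBS (horizontal axes) with 95% counting intervals for KLF and SP genes (left) and trafficking genes (right), 1 pooled library per group; dotted lines mark a ratio of 1 in either direction. Black points are the 7 genes, all inside the dotted lines, and Klf10 at -1.21, S1pr2 at -1.31 and Itgae at -1.31 lie past the left one.

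Other trafficking genes were mostly lower in the SJMHE1 library, and the receptors for sphingosine 1-phosphate (S1P) split in direction. All 24 genes listed were tested, and their median log2 ratio was -0.17. Of them, 6 were higher and 18 lower (8 and 16 with equal FPKM sums, where S1pr4 and Itga4 turned positive). Over the 18426 genes with the list minimum, 8485 were higher and 9757 lower, with a median of -0.03. Past the threshold were 2 of the 24 genes, both on the lower side, beside 9.18% of the 18426 genes on that side. Of the 24 genes, 20 reached an FPKM of 1, where the share on that side was 3.57% of 12433 genes. S1pr3, a receptor that marks marginal zone B cells, had 10.2 FPKM in PBS and 15.3 in SJMHE1 from 2490 and 3962 counts, a ratio of 0.59 with an interval from 0.52 to 0.66. S1pr4 had 20.3 and 19.7 FPKM and a ratio of -0.04 with an interval that held 0. S1pr2, which confines B cells to germinal centres, had 1.56 and 0.63 FPKM from 686 and 293 counts, a ratio of -1.31, and S1pr5 had 0.55 and 0.49 FPKM. Of the S1P receptors, S1pr1 and S1pr3 were thus higher, S1pr2 was past the threshold on the lower side, and S1pr4 and S1pr5 had intervals that held 0. Cd69, whose protein takes S1PR1 off the cell surface, had 69.4 FPKM in PBS and 62.7 in SJMHE1, a ratio of -0.15.

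Beside a Klf2 ratio of -0.01, S1pr1 had a ratio of 0.22 and Itgb7 one of -0.24. Whether either gene depends on KLF2 in these cells was not tested. Of the chemokine receptors, Ccr7, which guides lymphocytes to the T cell zone, stood out with 141.8 and 80.5 FPKM from 15396 and 9249 counts, a ratio of -0.82. Cxcr5, which guides B cells to follicles, had 66.1 and 67.1 FPKM and a ratio of 0.02, and Cxcr4, which retains cells in bone marrow, had 183 and 163 FPKM and a ratio of -0.17. Ccr6 had 31.0 and 41.0 FPKM and a ratio of 0.41. Gpr183, the oxysterol receptor that places B cells at the follicle edge, had 55.4 and 43.0 FPKM and a ratio of -0.36. Cnr2, a receptor that helps hold B cells in the marginal zone and the marrow, had 67.6 and 78.7 FPKM and a ratio of 0.22.

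The partners of the β7 subunit were compared with Itgb7. Itga4, whose α4 chain forms the gut homing integrin with β7, had 30.3 FPKM in PBS and 28.9 in SJMHE1, a ratio of -0.07 (interval -0.10 to -0.05). Itgae, whose αE chain also pairs with β7, had 0.72 and 0.29 FPKM from 182 and 79 counts, a ratio of -1.31. The competing β1 chain, Itgb1, had 34.5 and 21.8 FPKM and a ratio of -0.66 (interval -0.71 to -0.61). The integrin subunits of LFA-1, Itgal and Itgb2, had ratios of 0.04 and -0.16. Itgb7 thus lay between Itga4 and Itgb1.

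Markers of other cell types were detected and differed between the libraries. The B cell label was borne out by 8 of 8 B cell markers, whose FPKM lay between 22.6 and 835 in PBS and between 20.5 and 835.2 in SJMHE1, with a median ratio of 0.01. All 8 T cell markers were lower in the SJMHE1 library, 7 of them past the threshold. Over the 18426 genes with the list minimum, 9.18% were past the threshold on the lower side. The summed FPKM of the T cell markers was 52.5 in PBS and 31.3 in SJMHE1, of which Lck gave 27.9 and 25.2. Lck had a ratio of -0.15 and the other 7 markers ratios from -2.51 to -1.42. The sums thus understate the difference in those 7. Trac had 9.42 and 1.69 FPKM and Cd3e 1.77 and 0.39. T cells also express Klf2, Klf6, Klf13, S1pr1, Itgb7, Ccr7, Itgae and Cxcr3, and the part of T cell RNA in these ratios was not tested. The 8 macrophage and monocyte markers summed to 118 FPKM in PBS and 57.0 in SJMHE1, with 6 lower and 1 past the threshold, Lyz2, at 88.8 and 37.4. Monocytes express Klf4, and the part of this difference in the Klf4 ratio was not tested. Fewer cells of a type and less RNA per cell cannot be told apart in such libraries.

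Of the remaining marker lists, those of NK and dendritic cells were mostly lower and those of neutrophils and endothelial cells mixed. All 6 erythroid markers were higher, with a median ratio of 0.52. All 5 NK cell markers were lower, 4 past the threshold, with sums of 13.7 and 6.27 FPKM. Of the dendritic cell markers, 5 of 6 were lower, with sums of 7.83 and 3.78. In this list, 2 were past the threshold (1 under TMM, DESeq2 size factors, centring or equal FPKM sums). The share past the threshold on the lower side was 9.18% over the 18426 genes with the list minimum. Of the 5 neutrophil markers, 2 were higher (3 under TMM, DESeq2 size factors or equal FPKM sums), and the sums were 296 and 399.8. Endothelial cells are known for high Klf2, Klf4 and S1pr1. Of their 7 markers, Emcn was at 0 in both libraries, Kdr and Tek were at 0 in PBS and at 0.02 and 0.04 in SJMHE1, and Cdh5 had 0.33 and 0.18 FPKM. Pecam1, at 38.0 and 37.1, is also expressed by B cells.

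Markers of B cell subsets were mixed. Of the follicular markers, Fcer2a, which encodes CD23, had a ratio of -0.01 and Ighd 0.11, while Ccr7, also on this list, had -0.82, and the median of 5 genes was 0.02. Of the marginal zone markers, Cr2 had 136 FPKM in PBS and 218 in SJMHE1, a ratio of 0.68, while Cd9 had -0.35 and Dtx1 -0.01, and the median of 7 genes was -0.01, which turned positive under TMM, DESeq2 size factors, centring or equal FPKM sums. Of the plasma cell markers, 5 of 6 were lower (4 with equal FPKM sums), while Xbp1 was higher with a ratio of 0.41. Tnfrsf17 was past the threshold, at 1.93 and 0.87 FPKM, beside 9.18% of the 18426 genes with the list minimum on the lower side. All 6 plasma cell markers reached an FPKM of 1, where that share was 3.57% of 12433 genes.

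The early response genes, whose RNA can change quickly like that of Klf2, Klf4 and Klf6, split in direction. Of 16 such genes, 9 were higher and 7 lower in the SJMHE1 library, with a median ratio of 0.04 and 1 past the threshold. Over the 18426 genes with the list minimum, 15.4% were past the threshold in either direction. All 16 early response genes reached an FPKM of 1, where the share was 6% of 12433 genes. Fos had 731 FPKM in PBS and 1050 in SJMHE1, a ratio of 0.52, and Egr1 had 305 and 452 FPKM, a ratio of 0.57. Atf3 had 77.2 and 32.5 FPKM, a ratio of -1.25, and Nr4a1 had 185 and 118 FPKM, a ratio of -0.65. Junb, at 563 and 519 FPKM, had a ratio of -0.12. The ratio of Klf4 thus lay on the side of Atf3 and Nr4a1, and that of Klf2 lay nearest to Fosb with 0.02 and Zfp36 with 0.06 in this list. The levels of these genes can change while cells are sorted, and the part of handling in the KLF values was not tested.

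Over the 9899 other protein-coding genes tested, the genes nearest to Klf2 by the distance of their log2 FPKM in both libraries were Iglc2 at 518 and 466 FPKM, Rpl8 at 527 and 499 and H3f3b at 458 and 505, at distances of 0.0986, 0.110 and 0.115. Those nearest to S1pr1 were Nxf1 at 76.2 and 86.6 FPKM, Gimap8 at 76.6 and 93.1 and Ivns1abp at 77.9 and 93.9, at distances of 0.0430, 0.0610 and 0.0784. With 2 libraries, nearness means a similar level in both and no more.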

How the data were processed

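RNA of sorted spleen B cells was sequenced after removal of ribosomal RNA, with material of 3 mice mixed per group. The authors deposited counts, which are whole numbers and not normalized, and the deposited FPKM values, which the authors scaled by gene length and library size and rounded to 2 decimals. The submitters' processing notes name bcl2fastq 2.0, HISAT2, StringTie, DESeq2, limma and the build mm10, without roles, and whether counting used strand is not given in the sources used here. The total count was 48267168 for PBS and 51280237 for SJMHE1. A count of 0 was taken to allow up to 3 counts, a fixed setting and not one of the exact intervals. The names of 2 further columns of values match no sample, so these columns were not used and the Control group was not analysed here.

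The log2 ratio of FPKM, SJMHE1 to PBS, was taken without a pseudocount for genes above 0 in both libraries that reached an FPKM of 1, or 0.1 for gene lists, in one of them. Counting intervals at the 95% level are exact (Clopper-Pearson for ratios, Poisson for levels). No test was possible with 1 library per group, and none was fitted. The genes named are the 7 members, genes of the 16 lists and the 3 protein-coding genes nearest to Klf2 and to S1pr1. The values of some listed genes are not reported or drawn here. Members and lists were chosen with earlier results of these data known. The 7 genes have the same coordinates in GENCODE M21 (GRCm38), and exons are those of the principal transcript there. Of windows of 50 bases in the transcripts, between 0 and 0.350% also occur in transcripts of other genes. Genes overlapping Klf3 and Klf13 had at most 118 counts. RefSeq upstream windows were found for 6 of the 7 genes and were cut at the gene's start in the deposited table. The count ratios and their intervals were tried on simulated Poisson counts. That simulation held no FPKM scaling and no spread between mice or pools, so it covers counting error alone. Scaling factors came from edgeR 4.0.16 (TMM) and DESeq2 1.42.0 in R 4.3.3, and the other steps ran in Python 3.11.15 (scipy 1.17.1, numpy 2.4.6, pandas 2.3.3; figures, matplotlib 3.10.9).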

Additional observations from a re-analysis of the deposited data

How the results depend on the processing

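No paired analysis was possible because a group is a single pooled library. The number of members past a log2 ratio of 1 was 0 under each of the 9 alternatives run for it. It could hardly come out otherwise. The filters leave the members' ratios as they are, and the scalings and pseudocounts move them little. S1pr1 was higher in the SJMHE1 library under all 9 alternatives, with ratios from 0.22 to 0.30, and Klf4 was lower, from -0.56 to -0.47. Klf6 ranged from -0.21 to -0.12, Klf13 from -0.26 to -0.17, Itgb7 from -0.25 to -0.16 and Klf3 from -0.17 to -0.08, while Klf2 changed sign, from -0.02 with counts scaled by library totals to 0.07 with equal FPKM sums. The median of the 7 genes, -0.20, was -0.16 with DESeq2 size factors, -0.18 with TMM and -0.12 with equal FPKM sums, where the median of the trafficking genes was -0.085. Equal sums add 0.083 to every ratio by construction. The other medians of the trafficking genes and those of the further KLF genes stayed between 2 bounds. These bounds were the median of the genes' lower interval ends and the median of their upper ends. They are not a counting interval of the list median. The number of all genes past the threshold, 302 higher and 444 lower, was 101 and 151 with an FPKM minimum of 1 in each library, 1367 and 2018 without a filter, 89 and 171 for protein-coding genes and 120 and 163 with a pseudocount of 1. The filters change the genes tested by construction, and a pseudocount pulls low genes toward 0. The 7 genes had at least 6198 counts each, so counting error is small for them, and the spread between mice or sorts was not measured.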
